A study of Rattus norvegicus with 6 samples.

Results

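The BCL2 family decides whether the outer membrane of the mitochondrion stays sealed or is opened to start apoptosis. Its response to soluble Neuregulin1 was followed in Schwann cells through 10 genes, taken by symbol from the 17327 genes counted in each sample. They were 6 BH3-only genes (Bmf, Bcl2l11, Bbc3, Pmaip1, Bad and Bid), the pore-forming effector Bax, and 3 survival genes (Bcl2, Bcl2l1 and Mcl1). The BH3-only genes Bmf and Bcl2l11 were down-regulated by NRG1, a direction in which 5.51% of all tested genes passed the test. None of the 3 survival genes passed it, set against 11.8% of all tested genes in either direction. With only 3 genes, that count does not show that they were unchanged. Their log2 fold changes were between 0.05 and 0.53.

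The survival proteins bind and hold the effectors Bax and Bak, and the BH3-only proteins bind the survival proteins or the effectors and so tip the balance towards cell death. BH3-only genes are a main point at which withdrawal of growth factors is read, since several of them are controlled by transcription, while others such as Bad and Bid are controlled largely by phosphorylation or cleavage of the protein. In Schwann cells, the glia of peripheral nerves, neuregulin acts through ErbB receptors and is a known survival factor.

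The cells were primary Schwann cells from sciatic nerves of adult female Wistar rats. Confluent cultures were starved for 18 h in medium with 2% serum and 10 μM forskolin, which raises cAMP, and were then given for 6 h either 10 nM recombinant soluble NRG1β1 (NRG1 samples) or the same volume of its buffer with albumin (mock samples). Forskolin was present in both groups, and the medium used before starvation held neuregulin in both. The 3 independent cell preparations, here cultures 1, 2 and 3, gave 1 mock and 1 NRG1 sample each, so that the comparison was made within cultures.

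Libraries held between 6821590 and 15475018 counts on genes, and 3 counts, taken as the floor, were between 0.194 and 0.440 CPM (a read count corrected for how deeply its library was sequenced). Culture 1 stood apart from the other cultures: the first principal component held 68.0% of the variance and separated both of its samples from the other 4. The Schwann cell markers Sox10, S100b and Ngfr were present in all 6 samples, but the summed level of 10 Schwann markers was 4761 CPM in mock culture 1 against 10777 and 11153 CPM in the other mock samples, and 3478 against 7880 and 8533 CPM in the NRG1 samples. Of the 6 fibroblast markers, Thy1, Dcn and Lum were counted in culture 1 and were at 0 in cultures 2 and 3. Thy1 was at 1233 and 1106 CPM in the mock and NRG1 samples of culture 1, and Pdgfra was at 846 and 800 CPM there and at most 1.62 CPM elsewhere. The fibroblast list summed to between 13881 and 30166 CPM in mock and between 13493 and 33368 CPM in NRG1 samples, nearly all of it from Col1a1, and Col1a2 was at or near 0 in all samples. The 6 macrophage and leukocyte markers summed to between 3.29 and 10.0 CPM over all samples. Ptprc, Aif1 and Itgam had at most 1 count in any library, Cd68 was counted in every library at 15 to 57 counts, and Cd14 had 58 and 40 counts in culture 1 and at most 5 elsewhere. The 4 endothelial markers summed to between 5.80 and 14.8 CPM, nearly all of it from Tek, while Pecam1 and Cdh5 had no count. The 3 perineurial markers summed to between 109 and 199 CPM. Of these, Itgb4 had a log2 fold change of -1.44 with NRG1 and Slc2a1 of 0.59. The 4 neuron markers summed to between 1510 and 5800 CPM, nearly all of it from Nefl, while Rbfox3 had no count. The part of these cells in the results was not tested. Results for the 10 genes are therefore given also without culture 1.

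Promoter sequences of the 2 genes that fell are shown as a description. They are the 250 bases before the annotated start in RefSeq, on the GRCr8 assembly, whereas the counts were made on rn5. A window was found for 8 of the 10 genes. Capitals mark a FoxO motif (GTAAACA or its reverse complement TGTTTAC) or the E-box CAGCTG.

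Bmf, chr3:125974065-125974314, minus strand: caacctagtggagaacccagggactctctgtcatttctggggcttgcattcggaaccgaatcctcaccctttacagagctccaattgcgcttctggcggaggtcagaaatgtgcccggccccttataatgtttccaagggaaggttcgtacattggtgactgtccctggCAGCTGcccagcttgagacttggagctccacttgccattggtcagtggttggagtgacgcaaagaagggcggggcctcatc
Bcl2l11, chr3:135819792-135820041, plus strand: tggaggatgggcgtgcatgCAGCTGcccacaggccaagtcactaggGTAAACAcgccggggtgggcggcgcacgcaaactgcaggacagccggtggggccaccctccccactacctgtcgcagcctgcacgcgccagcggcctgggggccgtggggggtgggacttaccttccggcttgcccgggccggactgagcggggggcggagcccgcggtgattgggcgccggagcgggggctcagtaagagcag
Bad, chr1:213562966-213563032, plus strand, a stretch around its match: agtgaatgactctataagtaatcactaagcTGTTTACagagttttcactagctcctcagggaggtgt

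FoxO factors are transcription factors that Akt keeps out of the nucleus, and Bcl2l11 is a known target of them. The FoxO motif was searched on both strands of the whole 300-base windows, which end 50 bases after the start, and was found in Bcl2l11 at -204 and in Bad at -118 from the start. Of all 27457 genes with a window, 4.13% held it. The E-box CAGCTG, which reads the same on both strands, was found at -231 in Bcl2l11 and at -81 and -1 in Bmf, the last running across the start, and 16.2% of all genes held it. None of the 8 genes with a window held the E-box CACGTG, the cAMP response element TGACGTCA or the AP-1 motif TGANTCA, which 7.08%, 2.0% and 8.04% of genes held. These matches were looked for with the fold changes known and are a description of letters. Sequence outside the 300-base windows was not searched, so neither a match nor its absence shows whether a factor acts on a gene. Whether FoxO factors act on these genes here was not tested.

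Bmf encodes a BH3-only protein that is held on the cytoskeleton by a dynein light chain and is released when cells lose attachment. It was counted at 45.0, 31.8 and 34.9 CPM in mock cultures 1, 2 and 3 and at 9.41, 3.05 and 7.50 CPM in the NRG1 samples of the same cultures. Every NRG1 sample was below every mock sample, which held for 10.2% of all tested genes. The mean went from 37.2 ± 6.87 to 6.65 ± 3.26 CPM (SD, n = 3). Bmf thus fell to 17.6% of mock, and its log2 fold change was -2.51 (SE, the standard error, 0.20, 95% interval -2.95 to -2.07, adjusted p = 3.73e-06 in edgeR's quasi-likelihood test with the culture as a block). It was 13th by p-value and 6th from the lowest by fold change among 9740 tested genes. The log2 ratios within cultures 1, 2 and 3 were -2.22, -3.32 and -2.16, so that culture 2 responded most and the mock level was lowest there.

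Bcl2l11 encodes Bim, a BH3-only protein that binds all the survival proteins and can also engage Bax directly. Its mock levels were close to each other, at 117.1, 100.1 and 106.5 CPM in cultures 1, 2 and 3. The NRG1 samples held 79.0, 39.5 and 56.4 CPM, again with no overlap between the groups. The mean went from 107.9 ± 8.56 to 58.3 ± 19.9 CPM (SD, n = 3). Bcl2l11 thus fell to 52.5% of mock, and its log2 fold change was -0.93 (SE 0.14, 95% interval -1.24 to -0.62, adjusted p = 0.000465 with edgeR). With an absolute log2 fold change over 1 required as well, Bcl2l11 no longer counted and Bmf remained. That stricter rule was met by 1.91% of all tested genes downwards and by 1.56% upwards. With the threshold relaxed to 0.05, Bmf and Bcl2l11 were still the only members to pass, while 11.7% of all tested genes did so downwards and 11.5% upwards. The log2 ratios within cultures 1, 2 and 3 were -0.56, -1.36 and -0.89. As for Bmf, culture 2 had the strongest response and the lowest level after NRG1.

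These 2 were the only BH3-only genes past the test, of 5 that could be tested, set against 5.51% of all tested genes that passed in this direction at the adjusted p threshold of 0.01. The 95% intervals of the 2 fold changes did not overlap, while the difference between them was not tested itself. Without culture 1, the log2 fold changes were -2.66 (SE 0.24) for Bmf and -1.12 (SE 0.18) for Bcl2l11. Both passed with edgeR, at adjusted p-values of 1.20e-25 and 4.99e-08. These are smaller than with all 3 cultures although the standard errors are larger and only 2 cultures remain. The fold changes, and not the passes, are therefore what this fit adds. In the fit with no replicate block, where the 6 samples were taken as unpaired, the adjusted p was 0.163 for Bmf and 0.252 for Bcl2l11 and neither passed. The share of Schwann cells in a culture and the RNA per cell cannot be told apart in such bulk samples.

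**Figure D1:**
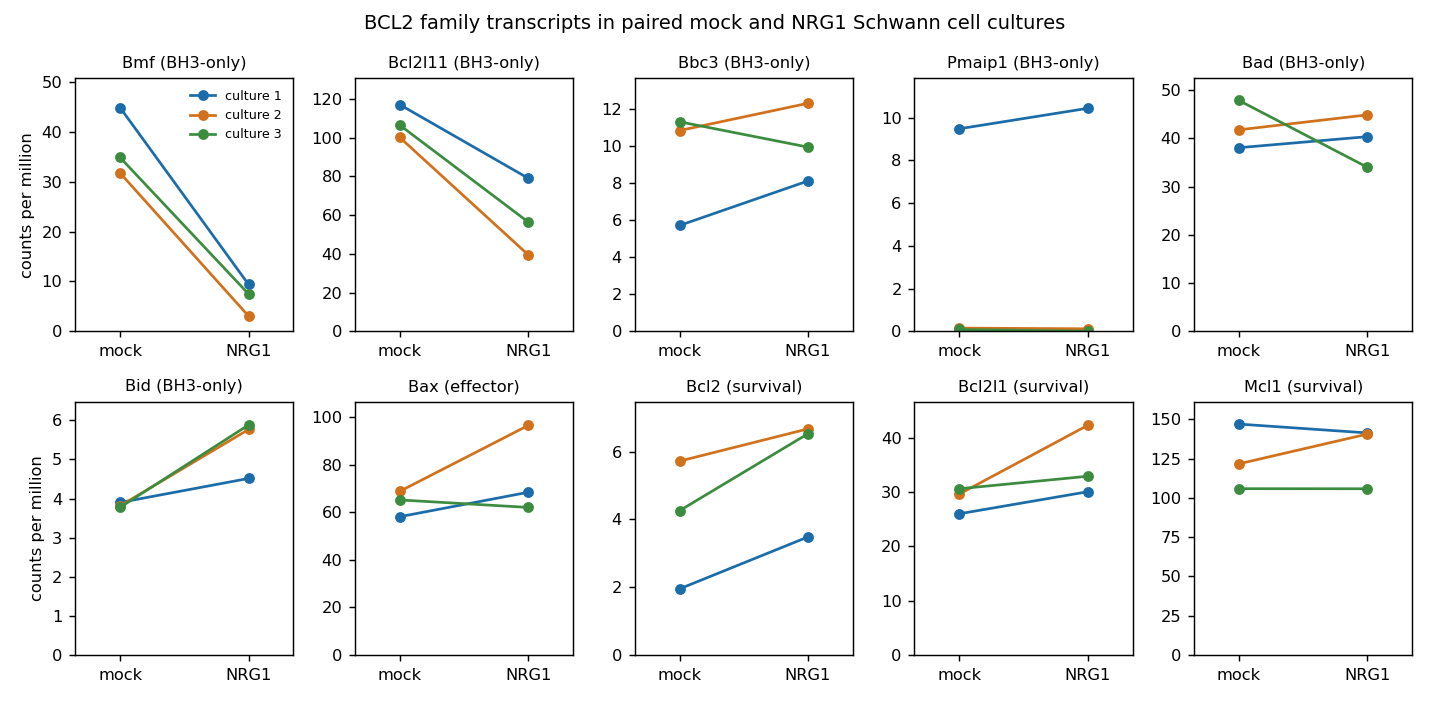
Level of each of the 10 genes in CPM (vertical axes, each from 0) in the mock and NRG1 samples, with a line joining the samples of 1 culture. Bmf and Bcl2l11 drop in all 3 cultures, and Pmaip1 is above 9 CPM in culture 1 and at most 0.147 CPM in cultures 2 and 3.

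The other BH3-only genes did not pass the test. Bbc3 encodes Puma and is a strong killer. It was at 5.72, 10.8 and 11.3 CPM in mock cultures 1, 2 and 3 and at 8.12, 12.3 and 9.95 CPM in the NRG1 samples, so the groups overlapped and the direction differed between cultures. The log2 fold change of Bbc3 came to 0.13 (95% interval -0.29 to 0.55, adjusted p = 0.67 with edgeR), and it was -0.0088 without culture 1.

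Bad encodes a protein that phosphorylation by survival kinases takes away from the survival proteins. It was at 38.1, 41.8 and 47.9 CPM in mock cultures 1, 2 and 3 and at 40.4, 44.9 and 34.0 CPM in the NRG1 samples. Only culture 3 held less Bad after NRG1, and the groups overlapped. The log2 fold change was -0.11 (95% interval -0.42 to 0.20, adjusted p = 0.62 with edgeR) and -0.20 without culture 1.

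Bid encodes a protein that caspase-8 cleaves to link death receptors to mitochondria. It was at 3.90, 3.81 and 3.77 CPM in mock cultures 1, 2 and 3, a narrow range, and at 4.51, 5.77 and 5.88 CPM in the NRG1 samples. Every NRG1 sample was above every mock sample, as for 9.00% of all tested genes, yet the test was not passed, with a log2 fold change of 0.51 (95% interval -0.01 to 1.02, adjusted p = 0.147 with edgeR). The counts behind these values were between 26 and 91 per library, and the log2 fold change was 0.63 without culture 1 (adjusted p = 0.162 with edgeR).

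Pmaip1 encodes Noxa, which binds Mcl1. It had 73 and 81 counts in the mock and NRG1 samples of culture 1 and 3 counts in all over the other 4 libraries, so that its level differed between cultures. In CPM, it was at 9.48 and 10.4 in culture 1, at 0.147 and 0.113 in culture 2, and at 0.0803 and 0 in culture 3, where the floor was 0.194 CPM for the NRG1 sample. It was therefore below the filter on low counts and was not tested with the rest. Without the filter, its log2 fold change came to 0.09 (SE 0.42, adjusted p = 0.924 with edgeR), which rests on culture 1 alone. The fibroblast markers Thy1, Dcn, Lum and Pdgfra were also high in culture 1 alone. Those of the same list that did not follow this pattern were Col1a1, high in all 3 cultures, and Col1a2, at or near 0 in all. Cd14, of the macrophage and leukocyte list, was highest in culture 1 too. The part of any of these cells in the Pmaip1 counts was not tested.

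Bax, which forms the pores once active, was at 58.1, 68.8 and 65.1 CPM in mock cultures 1, 2 and 3 and at 68.3, 96.4 and 62.0 CPM in the NRG1 samples. The groups overlapped, and culture 2 held the highest value. The log2 fold change was 0.22 (95% interval -0.06 to 0.49, adjusted p = 0.245 with edgeR), and 0.21 without culture 1.

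Among the survival genes, Bcl2 encodes the protein for which the family is named. It was at 1.95, 5.72 and 4.26 CPM in mock cultures 1, 2 and 3 and at 3.48, 6.67 and 6.53 CPM in the NRG1 samples. Its level was higher after NRG1 within each culture, by log2 ratios of 0.78, 0.19 and 0.62 in cultures 1, 2 and 3. Mock levels differed 2.93-fold between cultures, a spread that the comparison within cultures sets aside. The lowest values were those of culture 1. With between 15 and 101 counts per library, the log2 fold change was 0.53 (95% interval 0.0013 to 1.05, unadjusted p = 0.0495 and adjusted p = 0.139 with edgeR). Without culture 1 it was 0.44 (adjusted p = 0.332 with edgeR).

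Bcl2l1 encodes Bcl-xL, the survival protein that many differentiated cells rely on, and a shorter isoform that promotes death. The gene counts do not separate the isoforms. It was at 26.0, 29.6 and 30.6 CPM in mock cultures 1, 2 and 3 and at 30.0, 42.3 and 32.9 CPM in the NRG1 samples, higher in each culture by log2 ratios of 0.22, 0.49 and 0.13. The log2 fold change of 0.28 (95% interval -0.01 to 0.57, adjusted p = 0.16 with edgeR) did not pass, and it was 0.31 without culture 1.

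Mcl1 encodes a short-lived survival protein that is lost quickly when translation or growth factors fail. It was at 146.9, 121.7 and 105.8 CPM in mock cultures 1, 2 and 3 and at 141.3, 140.6 and 105.8 CPM in the NRG1 samples. The values of culture 3 were nearly the same in both groups. Its log2 fold change was 0.05 (95% interval -0.20 to 0.30, adjusted p = 0.774 with edgeR), the narrowest interval of the 9 tested genes, and 0.11 without culture 1.

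Of the 3 survival genes, none was called higher, while 6.31% of all tested genes were. Their median log2 fold change was 0.28. The median was -0.11 over the 5 tested BH3-only genes and -0.03 over all tested genes, of which the central 95% lay between -0.99 and 0.89. Bmf lay outside that range and Bcl2l11 just inside it, and the other 7 tested members were well within it. In both directions together, 2 of the 9 tested members passed, set against 11.8% of all tested genes. A gene that missed the test was not shown to be unchanged: for Bid and Bcl2, increases of up to 1.02 and 1.05 on the log2 scale were still within the intervals, and that of Bcl2 lay just above 0.

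**Figure D2:**
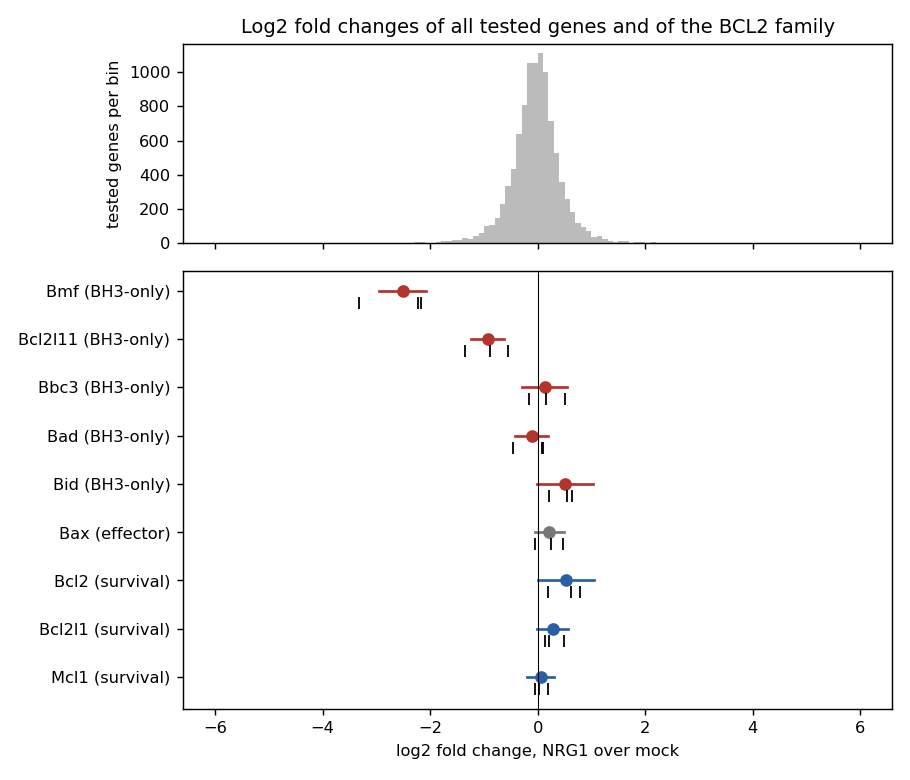
The upper panel counts all tested genes by log2 fold change of NRG1 over mock, and the lower panel gives the 9 tested members with their 95% intervals (lines) and the log2 ratios of the 3 cultures (ticks). Bmf at -2.51 and Bcl2l11 at -0.93 have intervals away from 0, while the survival genes sit between 0.05 and 0.53.

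BH3-only and survival transcripts were then set against each other inside each library, since a ratio of 2 counts of 1 library needs no scaling between libraries. Only the change of such a ratio is meaningful here, because the counts are not per length. Bmf relative to Mcl1 went from 30.6, 26.1 and 33.0 counts per 100 Mcl1 counts in mock cultures 1, 2 and 3 to 6.66, 2.17 and 7.09 with NRG1. The mean change of this ratio on the log2 scale was -2.67 ± 0.80 (SD, n = 3). Relative to Bcl2l1 it was -2.90 ± 0.87 and relative to Bcl2 -3.18 ± 0.39.

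Bcl2l11 relative to Mcl1 went from 79.7, 82.3 and 100.6 counts per 100 Mcl1 counts to 55.9, 28.1 and 53.3. Its ratio to Bcl2 changed by -1.40, -1.57 and -1.53 on the log2 scale in cultures 1, 2 and 3, the closest agreement between cultures of any of the ratios of these 2 genes. For both genes, all 3 ratios were lower with NRG1 in all 3 cultures. No such count was reached by the others: 1 of the 3 Bbc3 ratios and 2 of the 3 Bad ratios were lower in all cultures, 2 of the 3 Bid ratios were higher in all cultures, and no Bax ratio moved one way in all 3. The 3 ratios of a gene share its own counts and follow from the changes within cultures given above, so they are not separate results. Of all tested genes, 30.0% were lower with NRG1 in all 3 pairs by their own level, and 25.9% were higher. With 3 pairs, an exact permutation test cannot give a two-sided p below 0.25, so no test was made on the ratios.

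**Figure D3:**
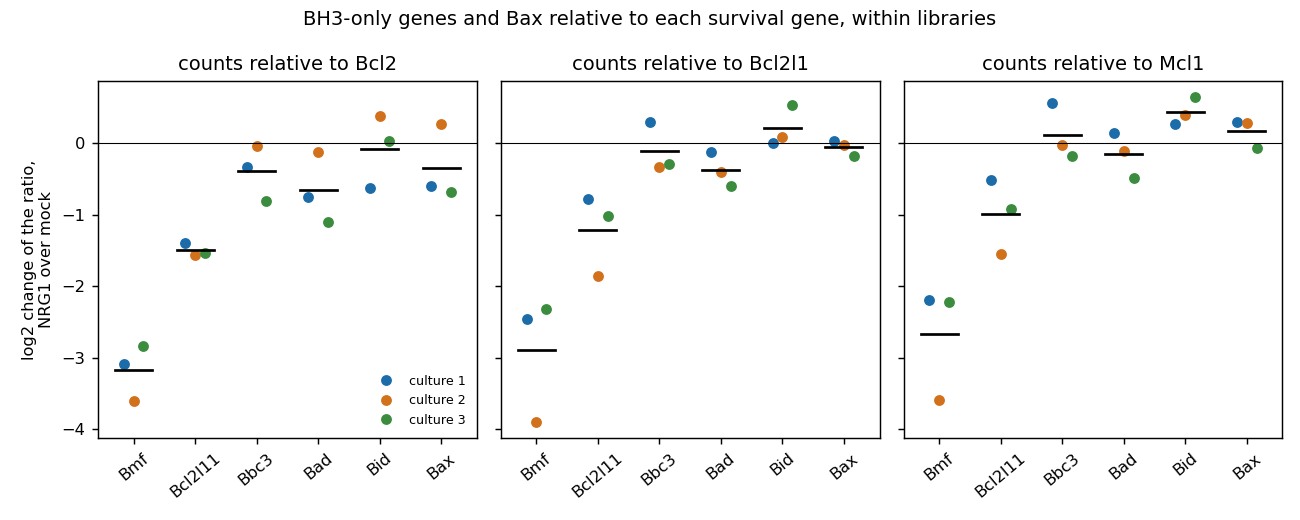
Log2 change, NRG1 over mock, of the counts of 5 BH3-only genes and Bax relative to Bcl2, Bcl2l1 and Mcl1, with 1 point per culture and a line at the mean. All points of Bmf and Bcl2l11 are below 0, and those of the other genes lie around it.

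The fold changes of Bmf and Bcl2l11 kept their direction under each of 13 alternative settings, between -2.70 and -2.21 for Bmf and between -1.12 and -0.73 for Bcl2l11. The call of Bmf was lost in 1 of them, edgeR with no replicate block, and that of Bcl2l11 in 2, edgeR and DESeq2 with no replicate block.

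**Figure D4:**
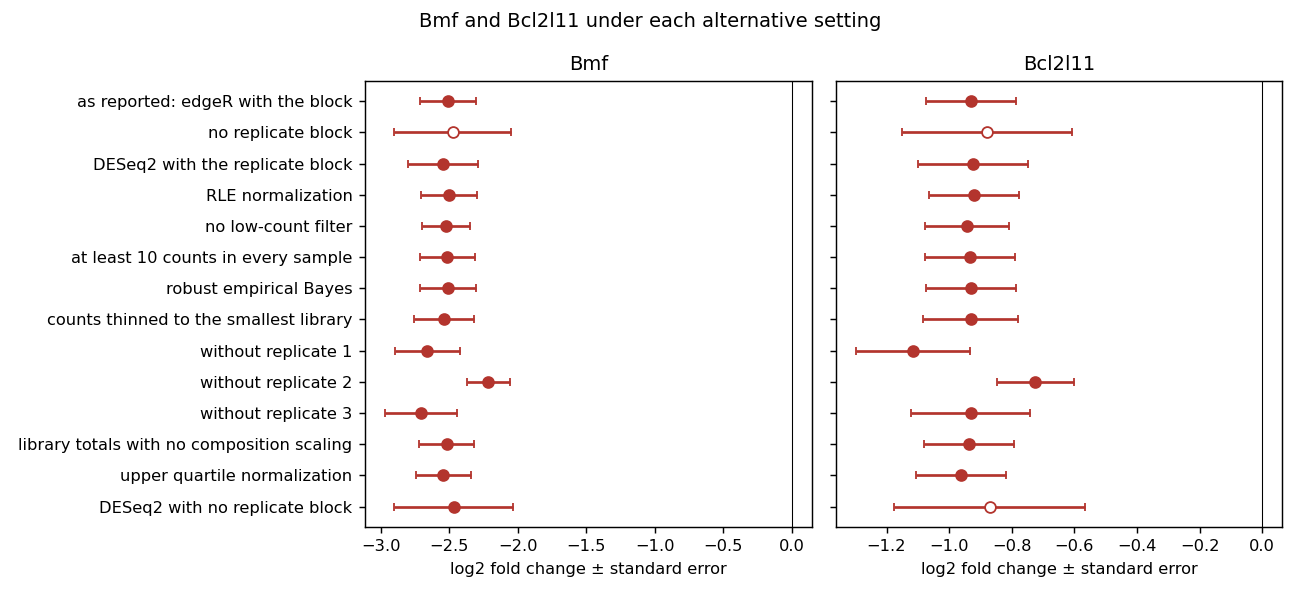
Log2 fold change with its standard error for Bmf and Bcl2l11 under the reported setting and 13 alternatives, where filled points have an adjusted p no higher than 0.01 and open points a higher one. All points lie below 0, and the open ones belong to fits with no replicate block.

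The genes most like Bmf over the 6 samples, by the root mean square difference of log2 CPM after each gene was centred on its own mean, were Lingo1 (0.39), Adgrf5 (0.45), Rasgef1c (0.50), Tcp11l2 (0.52) and Tmem140 (0.53). The pattern they were chosen by contains the fall of Bmf, so that all 5 were lower with NRG1 follows from the choice. Their log2 fold changes were between -3.30 (Rasgef1c) and -1.84 (Tcp11l2). The nearest to Bcl2l11 were Bcas3, Idnk and Cpeb4, at differences of 0.12, 0.14 and 0.14. They are named for their pattern only.

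Outside the 10 genes, 16 other genes of the BCL2 family were listed, of which 15 were in the files and 9 could be tested. None passed the test with edgeR, set against 11.8% of all tested genes in either direction, and their median log2 fold change was 0.11. Bak1, the second pore-forming effector, averaged 75.7 ± 19.6 CPM in mock samples and 90.4 ± 20.7 CPM with NRG1 (SD, n = 3). Its fitted log2 fold change was 0.27 (adjusted p = 0.109 with edgeR). Bnip3l, a mitochondrial protein of mitophagy named here after its value was seen, had a log2 fold change of -0.46 (adjusted p = 0.0113 with edgeR), just short of the threshold. Its adjusted p was 0.00586 in DESeq2 with the replicate block and between 0.00359 and 0.00944 in 4 other edgeR settings (upper quartile scaling, robust empirical Bayes, a stricter filter of 10 counts in each library, and no filter). With 1 culture left out, it was between 0.0203 and 0.0766 and the gene did not pass. Nor did it pass in edgeR with RLE scaling (0.0112), library totals (0.0113) or counts thinned to the smallest library (0.0123). With no replicate block the adjusted p was 0.410 in edgeR and 0.360 in DESeq2. Bcl2l14 had no count in any library, and Bcl2a1, Bcl2l10, Bcl2l15, Bik and Hrk, a BH3-only gene of neurons, were too low to be tested.

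Downstream of the mitochondrion, 1 of 16 tested genes of the apoptosome, caspases and inhibitors of apoptosis passed, or 6.25%, against 5.51% of all tested genes that passed as lower. Birc2, which encodes the ubiquitin ligase cIAP1, fell from 56.5 ± 4.49 to 39.5 ± 2.92 CPM (SD, n = 3; log2 fold change -0.51, SE 0.12, adjusted p = 0.00817 with edgeR). Its call was lost without culture 1, 2 or 3 in turn (log2 fold changes between -0.51 and -0.49, adjusted p between 0.0103 and 0.0601 with edgeR). The call was also lost in DESeq2 with the replicate block (adjusted p = 0.0164), with counts thinned to the smallest library (0.0119 with edgeR) and with no replicate block. Apaf1, which nucleates the apoptosome, had a log2 fold change of -0.38 (adjusted p = 0.084) and did not pass with edgeR. Casp6, named after its value was seen, was at -0.37 (adjusted p = 0.0463 with edgeR) and did not pass either.

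None of the 10 tested genes of the death receptor list passed, set against 11.8% of all tested genes in either direction. Their median log2 fold change was 0.00, and Tnfsf10 had no count. Tnfrsf21, a death receptor, had a log2 fold change of 0.58 (adjusted p = 0.137 with edgeR) and was lower with NRG1 in culture 1 and higher in cultures 2 and 3. It was at 1.24 without culture 1, where it passed, and at 0.35 and 0.25 without culture 2 and culture 3, where it did not. Cflar, which blocks caspase-8, was at 0.38 (adjusted p = 0.0687 with edgeR), at 0.56 without culture 2, where it passed, and at 0.37 and 0.23 without culture 1 and culture 3, where it did not. Both names were chosen after these values were seen.

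None of the 11 tested transcription regulators of BH3-only genes passed, set against 11.8% of all tested genes in either direction. Their median log2 fold change was -0.30, against -0.03 over all tested genes. Among them, Foxo1, Foxo3 and Foxo4 had log2 fold changes of -0.06, -0.35 and -0.42, with adjusted p-values of 0.845, 0.152 and 0.0182 in edgeR. Transcript levels do not show where FoxO proteins are in the cell.

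Of 15 tested genes that anchor the members or act on their turnover, 2 rose, or 13.3%, against 6.31% of all tested genes that passed as higher and 11.8% in either direction. Dynll1, the dynein light chain known to hold Bim, went from 156.8, 219.9 and 194.1 CPM in mock cultures 1, 2 and 3 to 199.2, 464.8 and 282.2 CPM (log2 fold change 0.66, SE 0.14, adjusted p = 0.00411 with edgeR). Its paralogue Dynll2, which holds Bmf, had a log2 fold change of 0.12 (adjusted p = 0.481 with edgeR). Rps6ka1, which encodes a kinase that phosphorylates Bad, rose by 0.51 as a log2 fold change (SE 0.12, adjusted p = 0.00835 with edgeR). The call of Dynll1 was lost without culture 2 (log2 fold change 0.46, adjusted p = 0.0165 with edgeR). That of Rps6ka1 was lost without culture 1, 2 or 3 in turn, with log2 fold changes between 0.43 and 0.63 and adjusted p-values between 0.0125 and 0.0363 with edgeR. It was also lost in edgeR with library totals (adjusted p = 0.0102), upper quartile scaling (0.0102) and counts thinned to the smallest library (0.0163). With no replicate block neither gene passed.

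**Figure D5:**
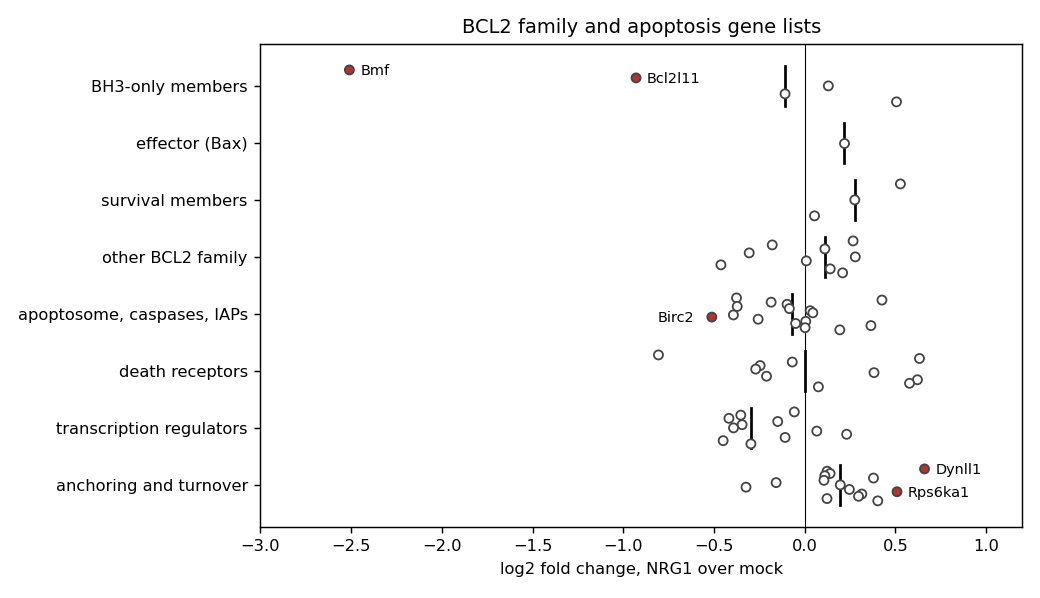
Log2 fold change of NRG1 over mock for the tested genes of the 10-gene set and of the genes reported from 5 lists of apoptosis genes, 1 point per gene, with filled points for an adjusted p no higher than 0.01 and a line at each list's median. Bmf at -2.51 lies apart from all other points, and the filled points of the 5 lists are Birc2, Dynll1 and Rps6ka1.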

How the data were processed

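Per the labels and methods, the authors used TopHat 2.0.10 to map poly(A) RNA reads to rn5 and htseq to count reads on each RefSeq gene, and the deposited counts are raw. The strand setting was not given in the sources used here. Unassigned and multi-mapping alignments, which made up between 50.1% and 53.0% of each file, were left out. Condition and culture were read from sample titles. Low genes were removed by filterByExpr (minimum count 10, by group), which kept 9740. The rest were scaled by TMM and tested in edgeR 4.0.16 (R 4.3.3) by the quasi-likelihood method with the culture as a block, as in the study's paired design. P-values were adjusted by Benjamini-Hochberg over all tested genes, and a gene passed at 0.01. Standard errors are the log2 fold change over the root of F. CPM used the counts on genes, and ratios within cultures a prior count of 2. DESeq2 1.42.0 and other settings were alternatives. Fits were tested on simulated data.

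The numbers mark independent cell preparations, and deviations from group means correlated across genes at 0.91, 0.67 and 0.81 for samples of the same culture and between -0.80 and 0.51 otherwise. No 2 libraries agreed within sampling noise. The 10 genes, the lists and the tests were chosen with earlier results of these data known. Named are all 10 genes, in each list the 3 with the smallest adjusted p among those past 0.01 and genes with no count, and the 5 (Bmf) or 3 (other called genes) nearest in pattern. Some genes of the marker, caspase and transcription regulator lists are not reported here, and counts, sums and medians of these lists leave them out. Other names were added for their roles or after their values were seen. In the GRCr8 annotation Acoxl overlaps Bcl2l11, Rps2-ps43 overlaps Bcl2l1 and 2 uncharacterised loci overlap Bcl2, so that reads there may be shared. Gene lengths were not used, and levels are not compared between genes. Floors and counts cover counting error only.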

Additional observations from a re-analysis of the deposited data

How the results depend on the processing

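Of 117 alternative fold changes of the 9 tested genes, 111 kept their direction and their side of the threshold. In the fit with no replicate block, edgeR called 0 genes of 9740 lower and 0 higher (smallest adjusted p 0.139, with 1334 genes at an unadjusted p under 0.05), so that 0 BH3-only genes and 0 genes of every list passed. DESeq2 with no replicate block, chosen after seeing the data, called 70 genes lower and 114 higher, among them 1 BH3-only gene, Bmf, and 0 genes of the inhibitor and caspase and the anchoring lists. DESeq2 with the replicate block called 1 gene of the other BCL2 family lower and 0 of the caspase list. Requiring an absolute log2 fold change over 1 left 1 BH3-only gene, 186 genes lower and 152 higher, and an adjusted p of at most 0.05 gave 1136 and 1124. With no low-count filter 857 genes were lower. Leaving out 1 culture at a time gave from 253 (without culture 3) to 601 genes lower and from 408 (without culture 3) to 590 genes higher, with 2 BH3-only genes in each case. Such fits rest on 2 cultures, so their passes are weaker support than their fold changes. Leaving out 1 culture gave 0 genes lower in the caspase list and 0 to 1 higher in the death receptor and in the anchoring list. With 1 culture left out, the log2 fold change of Bbc3 lay between -0.0088 (without culture 1) and 0.34, that of Bad between -0.21 and 0.11 (without culture 3) and that of Mcl1 between -0.0083 (without culture 2) and 0.11. Each changed sign once, none passed the test, and the cause was not tested. Bid and Bcl2, with 101 or fewer counts per library, have the widest intervals of the 7 tested members that were not called.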
